A study of Mus musculus with 2 samples.

Results

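The transcriptome described here is that of wild-type (Nedd4+/+) mouse B cells after 72 hours of culture with lipopolysaccharide (LPS) and interleukin 4 (IL-4). It was chosen as the library labelled Nedd4+/+, 1 of 2 libraries in the series, and all 23288 genes of its table were used. The cells were B cells of the spleen, on a B6:129 strain background backcrossed to B6. The mice were fetal liver chimeras, in which transplanted fetal liver rebuilds the blood while the other tissues remain those of the host. The culture medium was labelled as 15% RPMI, and the labels gave neither the doses nor the number of mice behind the library. The second library of the series, from Nedd4-/- cells of the same background and culture, served only to show which orders of genes recurred. Total RNA was depleted of ribosomal RNA with a Ribo-Zero kit, so noncoding RNAs were sampled beside messenger RNA. With 1 library there was no replicate error, and the intervals below are 95% intervals of read counting alone.

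Resting B cells divide little and secrete little antibody. LPS acts through Toll-like receptor 4 and starts division and differentiation towards antibody-secreting plasmablasts. IL-4 acts through its receptor, JAK kinases and the factor STAT6, and together with LPS it directs class switch recombination to IgG1, the purpose stated for these cultures. The switch draws on base excision, mismatch repair and end joining.

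Levels are given in RPKM, which divides reads by transcript length in kilobases and by library depth, so that genes of different length can be compared. Of the 23288 genes, 9525 (40.9%) had at least 1 RPKM and 185 (0.794%) at least 100, and 432 were listed at 0. The values corresponded to 8.40 gigabases of reads. At that depth 1 RPKM over a transcript of 2 kb stood for about 83.2 read pairs, with an interval of 0.797 to 1.24 RPKM. The median gene had 0.339 RPKM. Genes for olfactory and vomeronasal receptors, which are used by sensory neurons, gave a floor. Their 1453 genes had a median of 0.0513 RPKM and a 95th percentile of 0.176, with 2 at 1 RPKM or more. Nedd4 itself had 7.59 RPKM (7.23 to 7.95) in this library and 1.95 in the one labelled Nedd4-/-. The library held Xist, transcribed from the inactive X of female cells, at 23.7 RPKM, together with the Y-linked Eif2s3y at 5.14 and Ddx3y at 2.63.

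**Figure D1:**
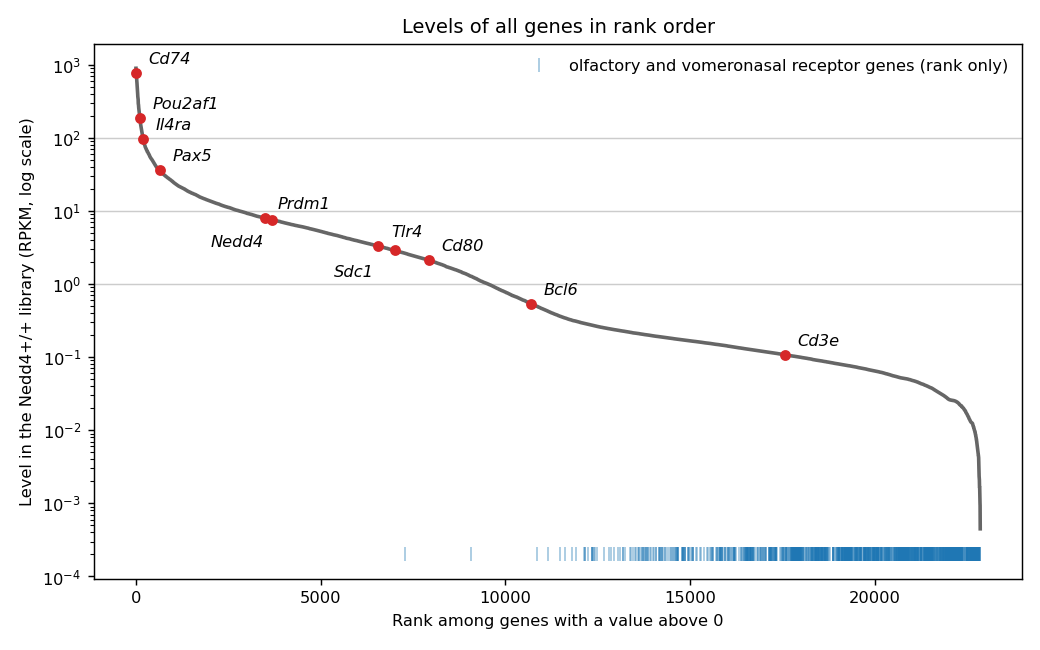
Level in RPKM (log axis) of each gene with a value above 0, in rank order, in the Nedd4+/+ library. Red points mark named genes, from Cd74 at 758 RPKM to Cd3e at 0.107, and blue ticks give the ranks of the olfactory and vomeronasal receptor genes, which gather at the low end.

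The label of splenic B cell was checked against cell type markers. All 21 of 21 genes of B cell identity had at least 1 RPKM, against 40.9% of all genes, and their median was 17.5. Among them Ms4a1, the gene of CD20, had 150 RPKM, Cd22 had 49.1 and Pax5, the factor that maintains B cell identity, had 35.6. Markers of T cells passed 1 RPKM in 3 of 20 genes. Those 3 were Thy1 at 11.8, the adhesion receptor gene Cd2 at 5.96 and Cd247, which encodes the zeta chain of the T cell receptor complex, at 4.6. The genes of the other CD3 chains of that complex, Cd3e, Cd3d and Cd3g, stood at 0.107, 0.0896 and 0.0443. Natural killer cell markers passed in 1 of 12 genes, Il2rb at 1.41. Myeloid markers passed in 2 of 20, Ly6c1 at 9.20 and Cd68 at 1.07, with Lyz2 at 0.232 and Csf1r at 0.201. Erythroid and platelet markers passed in 2 of 13, the globin genes Hba-a1 at 1.74 and Hba-a2 at 1.72. Stromal and endothelial markers passed in 2 of 13, Pecam1 at 2.14, which is also a B cell inhibitory receptor, and Epcam at 1.57. Cd3e, Cd3d and Cd3g were within the range of the sensory receptor genes, and Lyz2 and Csf1r were just above its 95th percentile. Whether Thy1, Cd2, Cd247, Ly6c1 and the globin genes came from B cells or from other cells was not tested. In bulk RNA, fewer cells of a type and less RNA per cell cannot be told apart.

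**Figure D2:**
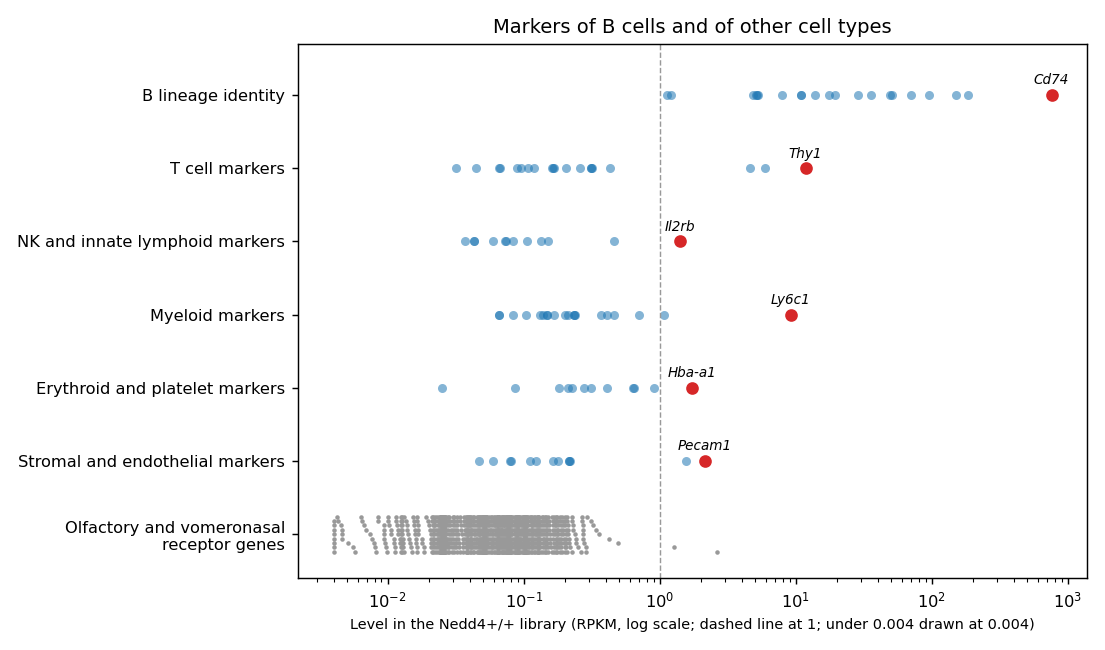
Level in RPKM (log axis) of each marker gene in the Nedd4+/+ library, with the highest of each list in red and the olfactory and vomeronasal receptor genes in grey. The B cell genes lie at 1.14 RPKM or more, and the other lists lie mostly under 1, with Thy1 at 11.8 and Ly6c1 at 9.20 as the highest exceptions.

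A small number of genes carried much of the summed level. Leaving small RNAs out of the genes and of the sum, the 10 highest genes held 5.30% of RPKM, the 100 highest 27.1% and the 1000 highest 58.6%. Of the sum with small RNAs left in, histone genes held 14.3% and ribosomal protein genes 5.38%. Chaperones and oxidases of the endoplasmic reticulum held 1.88% of that sum, genes of MHC class II presentation 1.35% and factors of translation 1.21%. Of the histone genes 73 of 76 had at least 1 RPKM, and of the ribosomal protein genes 78 of 78, against 40.9% of all genes. Most replication-dependent histone messages lack a poly(A) tail and are seen in RNA that was depleted rather than selected by the tail. Many histone and ribosomal protein genes have near-identical copies, and the treatment of reads with several matches is not given in the sources used here, so single members of these groups are not ranked.

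Outside histones, ribosomal proteins, small RNAs and predicted genes, the highest level was that of Cd74 at 758 RPKM. Cd74 encodes the invariant chain that loads MHC class II. Next came the actin gene Actb at 751, the actin-binding thymosin Tmsb4x at 696, Gnb2l1, a scaffold on the small ribosomal subunit, at 695, and the elongation factor gene Eef1a1 at 646. Below these, chaperones of the endoplasmic reticulum, with Hsp90b1 at 504, Calr at 478, Hspa5 at 415 and Pdia4 at 255, were interspersed with genes of antigen presentation. The latter were B2m at 459, H2-Aa at 353, H2-Ab1 at 341 and H2-K1 at 238. Igj, which encodes the J chain of secreted IgM, had 216 RPKM, and Cd52, a lymphocyte surface gene, had 213. The order at the very top may be limited by the deposited values. The highest mean depth was 7454 reads per base here, in the small RNA gene Rpph1, which is left out of this ranking. In the Nedd4-/- library the highest was 7463, although the reads came to 8.40 and 6.17 gigabases. Of the ranked genes, Cd74 had 6364 here and 4006 there, and Actb 6308 and 4469. A ceiling on depth was not tested in any of these genes.

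The B cell receptor signals through the CD79 pair and is tuned by coreceptors. Cd79b had 183 RPKM and Cd79a 13.9 (13.0 to 14.9), a ratio of 13.2 (12.3 to 14.2), although the proteins form a heterodimer. The interval covers counting error only, and the part of read assignment or transcript choice in the low value of Cd79a was not tested. In the Nedd4-/- library the same pair stood at 155 and 15.6. The tetraspanin coreceptor gene Cd81 had 46.4, whereas Cr2, a complement receptor, had 1.21. The phosphatase gene Ptpn6, recruited by inhibitory coreceptors, had 42.1 RPKM. Among those coreceptors Cd22 led, ahead of Siglecg at 8.83, Fcrl5 at 8.09, Fcgr2b at 5.94 and Cd72 at 5.12. Siglecg and Fcrl5 did not differ beyond counting error (ratio 1.09, 0.992 to 1.20). Of 18 receptor complex and coreceptor genes, 14 (77.8%) had at least 1 RPKM, against 40.9% of all genes. Among symbols that start with Igh, Igk or Igl, only Ighmbp2, Igll1 and Iglon5 were listed. No constant region gene of the antibody heavy or light chains was found by symbol, so no isotype can be given. The surrogate light chain genes of B cell precursors, Igll1, Vpreb1 and Vpreb2, stood at 0.187, 0.0860 and 0.284, and the recombinase genes Rag1 and Rag2 at 0.126 and 0.0767.

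Toll-like receptors were led by an endosomal sensor of RNA and not by the receptor of the added ligand. Tlr7 had 15.4 RPKM, Tlr1 3.49, Tlr4 3.27 and Tlr9, the sensor of unmethylated DNA, 0.864 (0.719 to 1.03). Tlr7 was thus 17.8-fold above Tlr9 (14.9 to 21.5). Tlr1 and Tlr4 did not differ beyond counting error (ratio 1.07, 0.936 to 1.22). These 3 leading genes (25% of 12) were the only ones with at least 1 RPKM, against 40.9% of all genes. Tlr8, next to Tlr7 on the X chromosome, stood at 0.0190. The partner of TLR4, MD-2, is encoded by Ly96, which had 2.57 RPKM, while the LPS receptor chain Cd14 stood at 0.232. The B cell LPS sensor RP105 is encoded by Cd180 at 6.08, and its partner MD-1 by Ly86 at 29.1, a ratio of 4.78 for Ly86 over Cd180. Hsp90b1 at 504 and Unc93b1 at 31.2 encode the chaperones that fold and deliver Toll-like receptors. Of the adaptors, Myd88 had 5.03 RPKM, Ticam2 3.64, Ticam1 3.57 and Tirap 2.00.

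Among receptors of the common gamma chain cytokines, the IL-4 receptor chain stood first. Il4ra had 94.6 RPKM, Il21r 31.1 and the shared chain gene Il2rg 12.9, so Il4ra exceeded the chain it pairs with 7.36-fold (6.88 to 7.87). The alternative partner of the IL-4 receptor, Il13ra1, had 0.345 RPKM (0.259 to 0.451), and Il4ra was 274-fold above it (209 to 365). Il2ra had 4.09 RPKM, Il2rb 1.41 and Il7r, the receptor of B cell precursors, 0.0509. Of 39 other cytokine receptor genes 20 (51.3%) had at least 1 RPKM, against 40.9% of all genes. The highest were Ifngr2 at 13.1, Il5ra at 9.83, a receptor chain for IL-5, and Tgfbr2 at 8.01. Both chains of the interferon gamma receptor were present, with Ifngr1 3.45-fold below Ifngr2 (3.07 to 3.88).

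In the TNF receptor family 10 of 27 genes (37.0%) had at least 1 RPKM, near the 40.9% of all genes. The survival receptor BAFF-R, encoded by Tnfrsf13c, led at 50.1, and TACI, the BAFF and APRIL receptor encoded by Tnfrsf13b, had 27.1. The T cell help receptor Cd40 had 15.2, Tnfrsf8 (CD30) 11.5 and the death receptor Fas 5.68. BCMA, the third receptor of this ligand system and a plasma cell gene, is encoded by Tnfrsf17, which had 0.288 (0.136 to 0.533). The BAFF receptor therefore stood 1.85-fold above TACI (1.71 to 1.99), with BCMA under 1 RPKM.

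Of 22 chemokine receptor genes 6 (27.3%) had at least 1 RPKM, against 40.9% of all genes. Cxcr5, which guides B cells to follicles, had 21.4, Cxcr4 had 14.5, Ccr7 had 2.58 and Ccr6 had 2.45. Cxcr5 stood 1.47-fold above Cxcr4 (1.37 to 1.59) here, whereas in the Nedd4-/- library they had 9.93 and 11.7. Guidance receptors for lipids and purines were led by P2ry10 at 23.2 and Gpr183 at 20.4, the latter an oxysterol receptor that positions B cells at the follicle edge. The sphingosine phosphate receptor genes S1pr4, S1pr1, S1pr3 and S1pr2 stood at 8.0, 1.97, 1.70 and 0.512.

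Only 1 of 34 chemokine genes (2.94%) reached 1 RPKM, against 40.9% of all genes. That gene was Ccl22, which attracts CCR4-bearing T cells, at 5.87 (5.39 to 6.39). Its neighbour Ccl17 encodes a ligand of the same receptor and had 0.246 (0.0826 to 0.563), a ratio of 23.9 (10.4 to 71.4) that rests on about 5.25 read pairs of Ccl17. The promoters of both, and that of the signalling inhibitor gene Cish at 7.01 RPKM, are shown because all belong to a list of IL-4 target genes and differ in level. Each runs from 250 nt before to 50 nt after the start site, from RefSeq on GRCm38.p6. Ccl22 lies at chr8:94745434-94745733, Ccl17 at chr8:94810203-94810502 and Cish at chr9:107296409-107296708, each on the plus strand. Capitals mark the spaced palindromes TTCNNNNGAA, the form preferred by STAT6, and TTCNNNGAA, the form shared by STAT factors, searched on both strands.
Ccl22: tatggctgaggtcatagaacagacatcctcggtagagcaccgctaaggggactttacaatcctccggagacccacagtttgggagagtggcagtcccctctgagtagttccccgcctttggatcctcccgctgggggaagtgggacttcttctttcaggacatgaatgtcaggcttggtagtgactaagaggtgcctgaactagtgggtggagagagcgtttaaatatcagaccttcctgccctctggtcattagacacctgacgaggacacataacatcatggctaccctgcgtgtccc
Ccl17: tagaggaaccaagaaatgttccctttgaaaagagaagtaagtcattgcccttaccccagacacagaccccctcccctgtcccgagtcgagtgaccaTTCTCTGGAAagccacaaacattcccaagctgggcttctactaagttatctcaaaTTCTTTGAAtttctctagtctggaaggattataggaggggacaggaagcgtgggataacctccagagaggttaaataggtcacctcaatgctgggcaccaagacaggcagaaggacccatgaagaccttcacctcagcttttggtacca
Cish: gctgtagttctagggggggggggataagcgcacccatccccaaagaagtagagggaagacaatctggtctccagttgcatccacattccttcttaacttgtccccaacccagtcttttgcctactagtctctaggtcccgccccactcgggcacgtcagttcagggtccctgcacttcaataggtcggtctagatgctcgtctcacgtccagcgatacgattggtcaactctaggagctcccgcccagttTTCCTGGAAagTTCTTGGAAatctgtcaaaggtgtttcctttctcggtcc
The promoter of Ccl17 held 1 match of each form, TTCTCTGGAA and TTCTTTGAA, that of Cish 2 of the shorter form, TTCCTGGAA and TTCTTGGAA, and that of Ccl22 none. Of 32851 promoters of this length, 6.95% held TTCNNNNGAA and 8.30% TTCNNNGAA. Among 18 IL-4 target genes with a promoter in the table, 5 and 4 held them in at least 1 promoter. Some of these genes have up to 3 promoters, so these counts per gene cannot be set beside the shares per promoter. The matches are letters in a window and say nothing of binding.

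Of 44 interleukin and related cytokine genes 8 (18.2%) had at least 1 RPKM, against 40.9% of all genes. Mif, a cytokine stored by many cells, led at 34.2, ahead of Il16 at 11.9. Il6, which B cells secrete after LPS, had 5.34 and Il10, the gene of an inhibitory cytokine, 2.25, a ratio of 2.37 (1.90 to 2.96). Ebi3, a subunit of IL-27 and IL-35, had 3.48, while its partners Il27 and Il12a stood at 0.357 and 0.538. TNF ligands passed in 5 of 18 genes (27.8%), against 40.9% of all genes. Ltb, the membrane chain of lymphotoxin, had 7.93, Tnf 3.36 and Lta 1.51. The BAFF and APRIL genes Tnfsf13b and Tnfsf13 stood at 0.0959 and 0.0972, within the range of the sensory receptor genes.

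Signalling families differed in how far 1 member led. All 4 JAK kinases and all 7 STAT factors had at least 1 RPKM. Jak1 and Jak3, which serve the IL-4 receptor, had 16.2 and 9.34, and Tyk2 and Jak2 had 5.43 and 5.33 without a difference beyond counting error. Stat3 came first at 21.8, whereas Stat6, the factor of IL-4, had 13.9, level with Stat4 at 13.7 (ratio 1.01, 0.948 to 1.08). Among the feedback inhibitors Socs2 stood at 47.3, Socs1 at 15.1, Socs3 at 8.96 and Socs5 at 0.344. In contrast Plcg2, the phospholipase of the B cell receptor, had 33.9 and its T cell counterpart Plcg1 2.14, a ratio of 15.8 (14.3 to 17.5). Syk had 20.8 and its T cell relative Zap70 0.259. Of the Src kinases, Lyn led at 13.2 over Fyn at 5.83, Blk at 4.73 and Lck at 1.41. Their inhibitor Csk stood above all of them at 60.1. Inpp5d, the gene of the phosphatase SHIP, had 28.2, and the lymphocyte PI3 kinase gene Pik3cd 20.4, 2.77-fold above Pik3ca (2.63 to 2.93). Akt1 had 13.8 and Akt2 4.61, and Nfatc3 led the NFAT factors at 9.69 over Nfatc1 at 2.28.

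All 5 NF-kappaB subunits were above 1 RPKM, in an uneven order. Nfkb1, the precursor of p50, had 74.5, Nfkb2 19.4, Rel 7.42, Relb 6.85 and Rela 4.6. Nfkb1 was 16.2-fold above Rela (14.8 to 17.7), and Rel and Relb did not differ beyond counting error (ratio 1.08, 0.991 to 1.18). The inhibitor gene Nfkbia led its family at 43.7. Of 30 genes listed as LPS and NF-kappaB targets, 27 (90%) had at least 1 RPKM, against 40.9% of all genes, and their median was 10.7. Cd83, an activation marker, stood highest at 90.6, and Tnfaip3, a feedback inhibitor, had 24.01. IL-4 target genes passed in 11 of 21 (52.4%), a share near the 40.9% of all genes. In that list, Nfil3 had 40.1, Il4i1, an amino acid oxidase, 20.9 and Fcer2a (CD23) 11.0, while Arg1, Retnla and Chi3l3, which IL-4 induces in macrophages, stood at 0.391, 0.160 and 0.0911. Interferon-inducible genes passed in 14 of 26 (53.8%), also near the background, from Ifi27l2a at 78.0 and Gbp2 at 32.0 down to Cxcl9 at 0.0710.

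**Figure D3:**
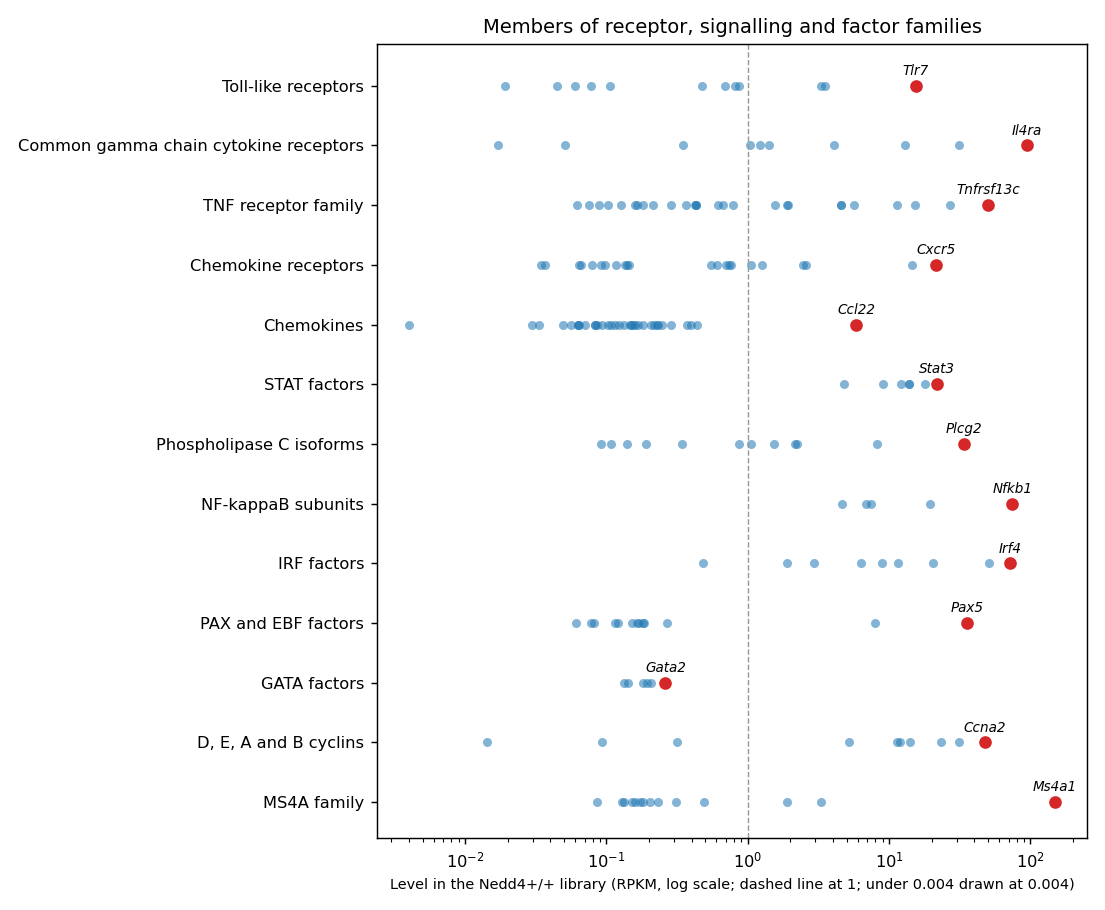
Level in RPKM (log axis) of every member of 13 receptor, ligand, signalling and factor families in the Nedd4+/+ library, with the highest member in red and a dashed line at 1 RPKM. Families such as chemokines have 1 member above the line (Ccl22 at 5.87), STAT and NF-kappaB factors have all members above it, and GATA factors have none.

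Transcription factors of the B lineage were present beside those of the plasma cell program. Pax5 had 35.6 RPKM and Ebf1 7.97, and the other 11 genes of the PAX and EBF families lay no higher than Ebf4 at 0.268. Ikzf1 and Ikzf3, Ikaros and Aiolos, had 36.2 and 23.7, with Ikzf2 at 0.0530. Pou2af1, a coactivator for octamer-binding factors, had 184, although the octamer factors Pou2f1 and Pou2f2 had 3.93 and 2.93. Among ETS factors, Fli1 had 30.01, Ets1 25.5, Elf1 23.8 and the B cell factor Spib 17.2. E proteins, which drive B cell genes, stood at 25.2 for Tcf3, 11.4 for Tcf4 and 7.82 for Tcf12, and their inhibitors Id3 and Id2 at 6.03 and 0.963. Mef2c had 47.5, 4.17-fold above Mef2a (3.98 to 4.37). No GATA factor reached 1 RPKM. Of 11 T-box and helper T cell factors 2 (18.2%) did, Mafk at 4.80 and Mafg at 2.65, against 40.9% of all genes. Foxp3, in the same list, lay 2.66-fold below Mafg (2.22 to 3.21). Gata3 and Tbx21, factors of helper T cells, stood at 0.134 and 0.216.

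The factors of the plasma cell switch were spread over a wide range. Irf4 had 72.1 and Irf8 50.6, a ratio of 1.42 (1.38 to 1.47) that was below 1 in the Nedd4-/- library, with 35.8 and 39.0. Prdm1, the gene of Blimp-1, had 7.97 (7.55 to 8.41), 4.47-fold below Pax5 (4.23 to 4.74), the factor it represses. Xbp1, the driver of the secretory program, had 132. Bach2, which holds back Prdm1, had 2.35, and Bcl6, the germinal center factor, had 0.536 (0.424 to 0.669). Among products of the program, Igj stood at 216 and 2010001M09Rik (Mzb1), an ER helper of antibody assembly, at 197. Ell2, an elongation factor that favours secretory antibody messages, had 33.1, Fam46c 27.7, Zbtb32 20.9 and Slamf7 14.2. The surface marker Sdc1 (CD138) had only 2.88 (2.59 to 3.18), 2.77-fold below Prdm1 (2.47 to 3.11). Of the 20 listed switch genes 17 (85%) had at least 1 RPKM, against 40.9% of all genes. Among 13 germinal center markers 8 (61.5%) passed, against 40.9% of all genes. Neil1 was one of them at 7.43, while Rgs13 and S1pr2 stood at 0.0481 and 0.512. Whether Pax5 and Prdm1 were on in the same cells was not tested.

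AP-1 factors showed a marked choice among members. Jund had 45.6 and Batf 44.3, which did not differ beyond counting error (ratio 1.03, 0.971 to 1.09), and Junb had 30.04. By contrast Fos had 0.325 (0.217 to 0.469), Fosb 0.166 and Fosl2 0.384, so the listed JUN members were above 1 RPKM and the FOS members below; Batf2, at 0.185, was below as well. Batf is needed in B cells for class switching. Myc had 8.91 RPKM, Max, its partner, 8.42 and Mlx 9.75, with no difference between neighbours beyond counting error, and Mycn had 0.214. Egr2 had 3.54, whereas the immediate early genes Egr1 and Nr4a1 stood at 0.334 and 0.254.

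Repair enzymes that serve class switching were measured beside APOBEC enzymes. Apobec3, which restricts retroviruses, had 49.5 RPKM and Apobec1, an RNA editing enzyme, 12.8. Ung, the uracil glycosylase of the switch, had 5.24 (4.77 to 5.73), and the other uracil glycosylase genes Tdg, Mbd4 and Smug1 had 3.91, 3.15 and 0.977. Apex1, the abasic endonuclease, had 37.6 and its relative Apex2 2.33. Mismatch repair was led by Msh6 at 21.6, with Msh4 and Msh5, the meiotic members, at 0.294 and 0.662. All 13 of 13 genes of DNA ligation and end joining had at least 1 RPKM, against 40.9% of all genes. In that group Rif1 had 17.3 and Atm 16.9 without a difference beyond counting error, Xrcc6 (Ku70) 11.7, Prkdc 6.04, Xrcc5 (Ku80) 5.60, Trp53bp1 3.91 and Lig4 1.61. The replicative ligase Lig1 thus exceeded the end joining ligase Lig4, at 13.5.

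Genes of division were high throughout. All 25 of 25 replication and division markers had at least 1 RPKM, against 40.9% of all genes, and their median was 28.0. Top2a had 121 RPKM, Pcna 70.4, Mki67 65.3 and Plk1, the lowest, 8.44. Cyclins were led by Ccna2 at 47.5 and Ccnd2 at 31.2. Within the D cyclins, which couple growth signals to the cell cycle, Ccnd2 was 5.999-fold above Ccnd3 (5.44 to 6.63) and 98.3-fold above Ccnd1 (74.3 to 133). Ccna1, a germ line cyclin, had 0.0937. The kinase gene Cdk4 had 49.6, 14.7-fold above Cdk6 (13.9 to 15.6). Of the inhibitors, Cdkn1b (p27) had 10.01, Cdkn2c (p18) 5.44 and Cdkn1a (p21) 2.30. The subunits of ribonucleotide reductase, Rrm2 and Rrm1, were close at 38.2 and 35.3, while the p53-induced Rrm2b had 1.22.

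Survival genes were led by short-lived members of the BCL2 family. Bcl2a1b had 62.4 and Mcl1 61.9, a ratio of 1.01 (0.960 to 1.06), and the near-identical copies Bcl2a1d and Bcl2a1a had 27.2 and 13.3, values that depend on how shared reads were split. Bcl2l1 (BCL-XL) had 16.0 and Bcl2 itself 3.38, a ratio of 4.74 (4.25 to 5.31). On the side of cell death, Bax had 26.9, Bid 15.9, Bak1 9.78, Bcl2l11 (BIM) 7.04 and Bbc3 (PUMA) 2.61. The initiator caspase genes Casp8 and Casp9 had 21.8 and 1.25.

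In glucose use the pyruvate kinase, lactate dehydrogenase, aldolase and enolase families each had 1 dominant member. Leads were smaller among hexokinases, phosphofructokinases and the transporters of glucose and lactate. Pkm had 164 RPKM and Pklr, the liver and red cell form, 0.183, close to the 95th percentile of 0.176 of the sensory receptor genes, so no fold is given. Ldha had 134 and Ldhb, likewise near that floor, 0.203. Aldoa had 149 and Aldoc 2.78, a ratio of 53.5 (46.5 to 62.0). Of the facilitative glucose transporter genes, Slc2a6 had 20.5, Slc2a1 (GLUT1) 13.2 and Slc2a3 4.73. Hk2 had 10.04, 1.89-fold above Hk1 (1.75 to 2.04), and the phosphofructokinase genes Pfkp and Pfkl were close at 22.6 and 19.04. Lactate transporters were led by Slc16a1 (MCT1) at 18.7 over Slc16a3 (MCT4) at 7.87. Gapdh had only 8.82 RPKM (8.07 to 9.61) and Eno1 21.5, against 102 for Tpi1, which acts beside them in the same chain. Gapdh and Eno1 are known for many processed pseudogenes, and the part of shared reads in these low values was not tested.

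**Figure D4:**
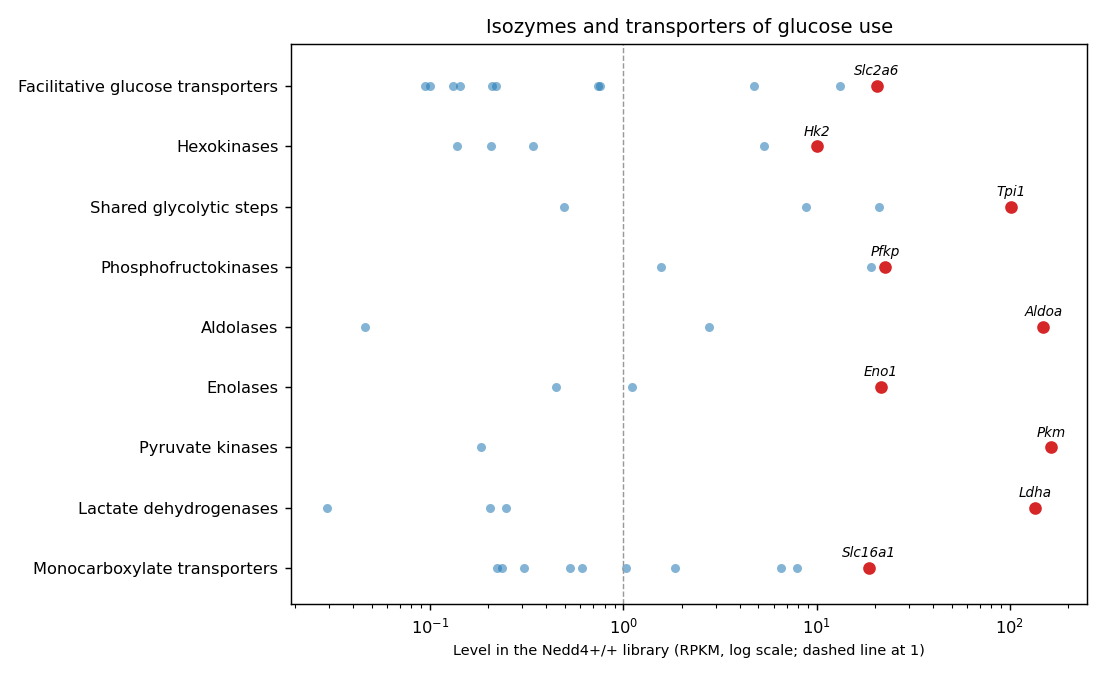
Level in RPKM (log axis) of each isozyme or transporter gene of glucose use in the Nedd4+/+ library, with the highest in red; the shared steps are Gpi1, Tpi1, Gapdh and Gapdhs. Pkm at 164, Aldoa at 149 and Ldha at 134 stand far from their relatives, whereas the phosphofructokinases have close members in Pfkp at 22.6 and Pfkl at 19.04.

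Serine and one carbon genes were high, whereas amino acid transporters were spread over a wide range. Of 23 transporter genes 14 (60.9%) had at least 1 RPKM, against 40.9% of all genes, and their median was 2.10. The highest were Slc1a5, a glutamine transporter, at 31.2, and the 2 chains of the leucine exchanger, Slc7a5 and Slc3a2, at 21.2 and 17.3. Asns, which makes asparagine, had 44.9. Of the serine and one carbon enzymes 9 of 10 (90%) passed 1 RPKM, and their median was 21.0. Psat1 had 70.6, the mitochondrial Shmt2 59.9, Phgdh 29.3 and Mthfd2 27.0. Shmt2 was 2.71-fold above the cytosolic Shmt1 (2.58 to 2.84).

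All 13 genes of MHC class II presentation had at least 1 RPKM, against 40.9% of all genes, and their median was 61.0. The alpha and beta chains H2-Aa and H2-Ab1 stood close at 353 and 341, the peptide editor H2-DMb2 at 108 and H2-DMa at 45.8, and the editor's inhibitors H2-Ob and H2-Oa at 17.6 and 5.97. Their master regulator Ciita had 19.8. Of the costimulatory ligands Cd86 had 11.6 and Cd80 2.10 (1.78 to 2.47), a ratio of 5.52 (4.66 to 6.59), and Icosl had 0.289. For adhesion, Itga4 and Itgal had 10.5 and 7.76 as the leading integrin alpha chains, and Itgb2 and Itgb1 16.1 and 14.6 as the beta chains. Both orders were turned in the Nedd4-/- library, at 3.998 and 6.29 for the alpha chains and 8.63 and 10.3 for the beta chains. Cd44 had 43.3 and Icam1 16.1.

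Genes of the secretory pathway had high levels. Of 25 ER chaperone and oxidase genes 24 (96%) had at least 1 RPKM, against 40.9% of all genes, and their median was 69.1. Pdia6 had 167 and Canx 117, and Pdia5 was the exception at 0.186. All 20 genes of signal peptide handling and translocation passed, and the signal peptidase gene Sec11c at 156 was 5.25-fold above its relative Sec11a (4.97 to 5.54). Among the sensors of unfolded protein, Atf6 had 13.1, Eif2ak3 (PERK) 9.14 and Ern1 (IRE1 alpha) 4.59, while the epithelial form Ern2 had 0.199. Ddit3 (CHOP), a gene of prolonged ER stress, had 5.66, against 132 for Xbp1 and 64.2 for Atf4.

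Among chromatin enzymes Dnmt1, the maintenance DNA methyltransferase, had 34.8, and its partner Uhrf1 36.2. The de novo enzyme gene Dnmt3a had 4.56 and Dnmt3b 1.37. Tet2 led its family at 8.80, with Tet1 at 0.185. Ezh2 was 10.9-fold above Ezh1 (9.86 to 12.1), at 26.7 against 2.45, and stood level with its complex partners Suz12 at 27.5 and Rbbp4 at 26.7. Smarca4 had 12.5 and its alternative Smarca2 3.66.

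Noncoding transcripts with at least 1 RPKM numbered 566 of 2869 (19.7%), against 8959 of 20419 coding transcripts (43.9%). Malat1 had 187 RPKM and its genomic neighbour Neat1 5.69, a ratio of 32.8 (30.5 to 35.4). The snoRNA hosts Snhg8, Gas5 and Snhg1 had 54.7, 44.5 and 43.2. Of all 625 microRNA genes 105 (16.8%) reached 1 RPKM over the hairpin, against 40.9% of all genes. Of 28 chosen for roles in lymphocytes, after values were seen, 14 (50%) did. The hairpin is too short for a standard library of fragments. The upstream kb, part of the primary transcript where the start lies farther upstream, is therefore given beside it. Mature sequences of some of these genes, and of Mir223 for contrast, are shown with the seed, bases 2 to 8 that pair with targets, in capitals, from RefSeq on GRCm38.p6. The mature forms themselves were not measured. An upstream window also counts reads of any host or other gene that covers it, and these were not separated here.
miR-155-5p: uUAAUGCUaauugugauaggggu
miR-21a-5p: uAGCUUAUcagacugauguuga
miR-142a-3p: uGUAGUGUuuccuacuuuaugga
miR-17-5p: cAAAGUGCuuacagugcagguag
miR-20a-5p: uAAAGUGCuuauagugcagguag
miR-18a-5p: uAAGGUGCaucuagugcagauag
miR-19a-3p: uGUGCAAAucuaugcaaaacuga
miR-19b-3p: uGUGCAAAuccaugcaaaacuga
miR-92a-3p: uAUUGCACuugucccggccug
miR-15a-5p: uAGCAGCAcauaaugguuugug
miR-15b-5p: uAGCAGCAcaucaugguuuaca
miR-223-3p: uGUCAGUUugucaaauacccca
The arms miR-17-5p and miR-20a-5p share the seed AAAGUGC, miR-19a-3p and miR-19b-3p share GUGCAAA, and miR-15a-5p and miR-15b-5p share AGCAGCA. The upstream kb of Mir21 had 23.3 RPKM (21.9 to 24.8) and that of Mir155, the host of which is induced in activated B cells, 21.6 (20.2 to 23.04). Their hairpins had 3.40 and 4.52 RPKM, which rested on about 13.0 and 12.2 read pairs. Mir142, a gene of all blood cells, had 9.77 over the hairpin and 13.9 upstream. The 6 hairpins of the Mir17 cluster ranged from 1.24 RPKM for Mir17 to 8.99 for Mir18, and their upstream windows, which overlap one another, from 5.34 to 8.77. Mir15b had 14.4 upstream and Mir15a 9.22. Mir150 and Mir25, whose sequences are not shown, had 3.53 and 2.84 over the hairpin. The myeloid Mir223 was listed at 0, with 0.0722 upstream, about 3 read pairs.

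The kilobase before each gene was also scored. Of the 23288 windows 8100 (34.8%) had at least 0.2 RPKM, 2143 at least 1, and 1048 were listed at 0. The median window had 0.134 RPKM, and among genes with at least 1 RPKM the median window stood at 4.83% of its gene. The level of the window followed that of the gene. It had a median of 0.0481 RPKM before genes under 0.1 RPKM, 0.206 before those from 1 to 3 and 0.612 before those of 100 or more. Windows before Il4ra and Cish had 1.46 and 0.583 RPKM, and those before Ccl22 and Ccl17 0.120 and 0.168.

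Much of this signal lay where windows cover another gene. Of 22846 windows matched to GRCm38, a later build than the mm9 of the files, 7712 overlapped another gene, with a median of 0.254 against 0.107 for the rest. Of the 15 highest windows 14 did so, the exception being the window before Rdm1 at 97.5. An overlap did not always come with a high level of the other gene. The window before Tex14 had 98.8 RPKM and overlaps Rad51c, which had 1.295. The genes that the windows before Gtf3c6 and Eapp overlap have no listed level. The window before Parp2 had 289 RPKM and covers Rpph1, the RNA of RNase P at 888, with Parp2 itself at 10.2. The window before Zc3h10 had 203 and covers Rpl41. The one before Ccdc107 had 193 and covers Rmrp at 703, and the one before Dapk3 had 56.9 and covers Eef2. In the Nedd4-/- library the windows before Parp2 and Ccdc107 had 394 and 263 RPKM, and those before Tex14 and Rdm1 134 and 132. A ceiling on depth was not tested in any of the highest windows. Without such windows the medians before genes from 1 to 3 RPKM and of 100 or more were 0.1504 and 0.384.

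**Figure D5:**
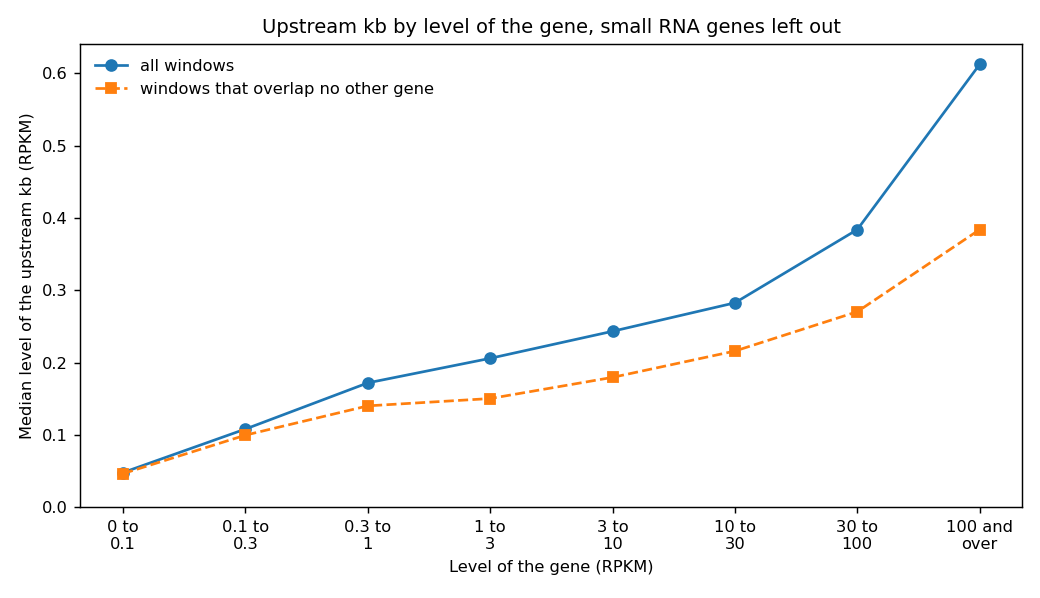
Median level of the upstream kb in RPKM against the level of its gene in RPKM (8 ranges), in the Nedd4+/+ library, small RNA genes left out, for all windows (circles) and for windows that overlap no other gene in GRCm38 (squares). Both lines climb with gene level, from 0.0481 to 0.612 and from 0.0466 to 0.384.

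Over 61 gene families with 699 members, 356 members (50.9%) had at least 1 RPKM, against 40.9% of all genes. The first member held over 50% of the summed level in 22 families and over 80% in 6, with a median of 44.4%. All members passed 1 RPKM in 10 families and none in 2, the GATA factors and the recombination genes Rag1, Rag2 and Dntt. The same member stood first in the Nedd4-/- library in 50 of 61 families, and in 38 of the 39 families whose first member led the next by at least 1.5-fold.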

How the data were processed

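Each library has 1 gene table and 1 upstream table. The submitters' processing notes name TopHat, Cufflinks and build mm9, without versions. How strand and reads with several matches were handled is not given in the sources used here. The deposited gene values are RPKM, per the file headers. The deposited upstream values behaved as a ratio, the level of the 1000-nt window over the gene's RPKM plus 0.0001, and were multiplied back to RPKM: 99.98% of 4388 low windows were then whole numbers of bases within 0.05. The design had assumed a level. These steps gave the depth of 8.40 gigabases. Approximate read pairs per gene used GENCODE transcript lengths on GRCm38 (97.1% of genes). Levels have Poisson 95% intervals, whose coverage was checked on simulated Poisson counts. Ratios have Clopper-Pearson 95% intervals, which were not checked by simulation. Intervals cover counting error only, as no molecular identifiers mark independent molecules. GRCm38 also gave neighbours, names and RefSeq sequences. Python 3.11.15, pandas 2.3.3 and scipy 1.17.1 were used.

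With 1 library per genotype no test was run. Detection was set at 1 RPKM for genes and 0.2 RPKM for windows. Named genes are all members of lists of up to 12, otherwise the 6 highest, those of 1 RPKM or more, those under 0.1 RPKM that a contrast needs, the highest 25 genes, Nedd4 and the 15 highest windows; the text gives part of these, and others were chosen once values had been seen. The members and lists were chosen with earlier results of these data known. After values were seen, the 61 families were set among 120 lists, the sensory receptor floor, gene pairs, microRNA genes, promoters and motifs (kept from a wider scan of genes and motifs) were chosen, and look-alike names were removed from the ribosomal protein list. Some genes of these lists, and the orders that rest on them, are not reported here.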

Additional observations from a re-analysis of the deposited data

How the results depend on the processing

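With any value above 0 counted, 22856 genes were detected in place of 9525. The 100 highest genes held 27.1% of summed RPKM, 28.6% with small RNA genes left in, 17.9% without histone and ribosomal protein genes, and 13.9% without genes over 2000 reads per base, the last chosen after seeing the data. Upstream windows numbered 14188 at 0.1 RPKM and 3584 at 0.5, and 3570 at 0.2 once windows that overlap another gene were left out, against 8100. Leading orders within families were also compared, some of them not described above, and those that rest on genes not reported here were left out. Of 56 orders compared, taken as log2 ratios with 1 RPKM added, 49 kept their direction in the Nedd4-/- library. When 0.1 RPKM was added instead, 52 of the 56 moved by less than 0.5. The 7 that turned in the Nedd4-/- library were Cxcr5 over Cxcr4 at -0.22, Irf4 over Irf8 at -0.12, Gata2 over Gata5 at -0.015, Jund over Batf at -0.41, Pfkfb2 over Pfkfb3 at -0.44, Itga4 over Itgal at -0.54 and Itgb2 over Itgb1 at -0.23; the cause was not tested. No paired analysis was possible because each genotype has 1 library, so the groups share fewer than 2 replicate numbers. The comparison with families led by at least 1.5-fold was added after seeing the data. Depth limits values under about 0.2 RPKM, where the sensory receptor genes lie, and hairpins of few read pairs.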

Other observations

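Gene groups not described above differed in the share of members at 1 RPKM or more. Of 19 GIMAP and guanylate binding genes 17 (89.5%) had at least 1 RPKM, against 40.9% of all genes. GTPases of the GIMAP group, which act in lymphocyte survival, were led by Gimap4 at 93.6 RPKM, Gimap6 at 58.6 and Gimap3 at 32.4. RGS genes, which damp chemokine receptor signals, had at least 1 RPKM in 3 of 19 members (15.8%). These were Rgs10 at 8.17, Rgs19 at 7.98 and Rgs14 at 2.07, with Rgs1 below at 0.950. Notch2, the receptor needed for marginal zone B cells, had 6.19, Notch1 5.37 and the target gene Dtx1 3.09, while the ligand genes Dll1, Dll4 and Jag1 stood at 0.203, 0.321 and 0.104.

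Cd48 led the SLAM receptors at 57.8 RPKM, before Slamf6 at 20.1, Ly9 at 16.5 and Slamf7 at 14.2, while Sh2d1a, the adaptor SAP of T cells, had 0.00625. Among tetraspanins Cd53 had 60.2, Cd81 46.4 and Cd82 27.4, and Cd63 had 0.0717. Of the lamins, Lmnb1 had 25.02 and Lmna 0.807, a ratio of 31.0 (23.6 to 41.7). Of the ubiquitin ligases related to Nedd4, Itch had 12.01 RPKM and the adaptor gene Ndfip1 28.1, so Itch stood 1.58-fold above Nedd4 (1.49 to 1.68) in this library.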
